A study of Homo sapiens with 12 samples.

Results

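Butyrate-treated K562 cells labelled HRG1-KO were compared with butyrate-treated wild-type (WT) K562 cells. K562 is an established human erythroleukemia line. The comparison uses every library of those groups, 6 of the 12 in the series: replicates 1, 2 and 3 of treated WT cells and replicates 1, 2 and 3 of treated HRG1-KO cells. Both groups received 0.75 mM sodium butyrate 24 h after plating and again 48 h later, and were collected 6 h after the second dose, at a time the series calls day 8 of differentiation. The other 6 libraries, 3 of WT and 3 of HRG1-KO cells without butyrate, served to ask which differences were absent or weaker in untreated cells. All 4 groups were grown in the same medium. The labels do not give how the KO cells were made, whether they are 1 clone or a pool, or whether replicates were separate cultures, so p-values measure only the spread between these samples. A difference between these WT and KO cells can also be one between 2 cell populations grown apart, and these cannot be told apart here.

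HRG1, the product of SLC48A1, is a transmembrane heme transporter best known for moving heme out of endosomes and lysosomes into the cytosol, for example in macrophages that digest red cells. Sodium butyrate inhibits histone deacetylases and pushes K562 cells toward an erythroid state, in which embryonic, fetal and alpha-type globins, heme enzymes and red cell membrane proteins are made. Heme is built in mitochondria and cytosol by a chain of enzymes from ALAS2 to FECH, and it also acts as a signal: it binds the repressor BACH1 and the kinase HRI, encoded by EIF2AK1, which slows translation when heme is scarce.

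Total counts per library ran from 19963594 to 30348538, and from 21656840 to 29242593 in the 6 treated libraries. The first principal component, with 53.1% of the variance, separated the genotypes. The second, with 20.9%, separated most treated from untreated libraries, but treated WT replicate 1 lay at 40.9 on it, among the untreated libraries, and treated KO replicate 1 at 4.21, while the other 4 treated libraries lay between -74.3 and -84.8. Treated WT replicate 1 also had the highest share of counts on 28S ribosomal RNA genes, 5.63% against 0.673% to 2.30% in the other treated libraries and values without it are given beside many of the results below. Levels below are CPM, each gene's counts scaled to a common library size by the TMM method, listed for replicates 1, 2 and 3 in that order, and differences are log2 of KO over WT from edgeR's quasi-likelihood test. A gene is called when its p-value, adjusted by the Benjamini-Hochberg method over the 15805 genes tested, is below 0.05.

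The targeted transcript was low in every treated KO library. SLC48A1, on chromosome 12 at 47753934 to 47782751 (GRCh38.p14), stood at 83.8, 58.9 and 60.8 CPM in treated WT cells and at 6.02, 7.99 and 10.1 CPM in treated KO cells. The groups did not overlap, and the KO mean was 11.8% of the WT mean, against 8.06% without butyrate. The log2 difference was -3.07 ± 0.34 (SE, n = 3 and 3; adjusted p = 7.41e-05), and the exact two-sided permutation test gave p = 0.1, the smallest that 3 against 3 allows. A transcript that remains in part does not say how much transporter protein the cells hold.

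Treated KO cells differed from treated WT cells in 3009 genes, 19.0% of those tested: 1604 were higher in KO (10.1%) and 1405 lower (8.89%). In untreated cells, which share no library with this comparison, 3574 genes were called (22.6%), of which 1856 were higher (11.7%) and 1718 lower (10.9%). Of the treated calls, 2374 were also called without butyrate, all in the same direction, and 635 were called only with it. Of these 635 genes, 608 leaned the same way in untreated cells. With the replicate number as a block, 4612 genes were called in treated cells, 3007 of them among the 3009. The count was 1802 when only the 6 treated libraries entered the fit, and 3477 without treated WT replicate 1, of which 2614 were among the 3009. Groups did not overlap in 5352 of the 15805 genes (33.9%).

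**Figure D1:**
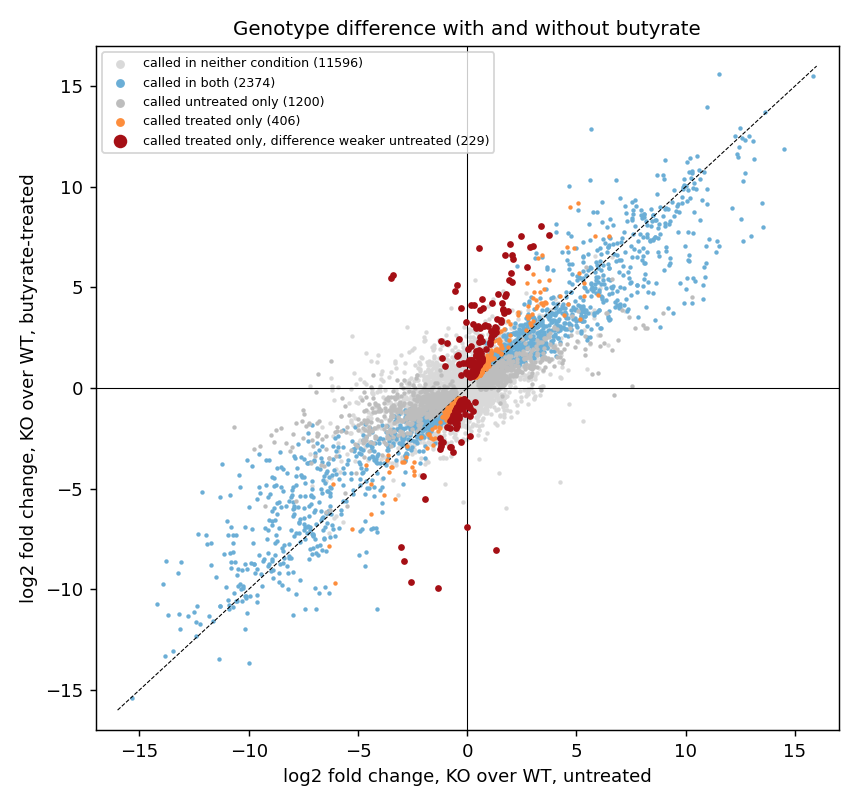
Log2 fold change of KO over WT for each of 15805 genes, without butyrate on the horizontal axis and with it on the vertical axis; the dashed line marks equal differences. The 2374 genes called in both conditions lie along the line, and the 229 genes called in treated cells whose difference was weaker without butyrate lie toward the vertical axis.

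The differences were uneven along the genome in both conditions. The 730 tested genes of chromosome 7 had a median log2 difference of -0.86 in treated cells (-0.78 untreated), and 38.8% of them were called lower, against 8.89% of all genes. The 267 genes of chromosome 13 had a median of 0.83 (0.94 untreated), with 39.7% called higher, against 10.1%. Chromosome 14 (0.57), chromosome 3 (0.45) and chromosome 22 (0.41) also had medians above 0, and chromosome 18 (-0.61) one below it, with 32.3% called lower. The median of all genes was -0.002 in treated cells. Several genes described below lie on chromosome 7, and their place is given beside their values. Genes only counted in a list, or named without values, are given without their place. DNA copy number was not measured here, and its part in these differences was not tested.

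**Figure D2:**
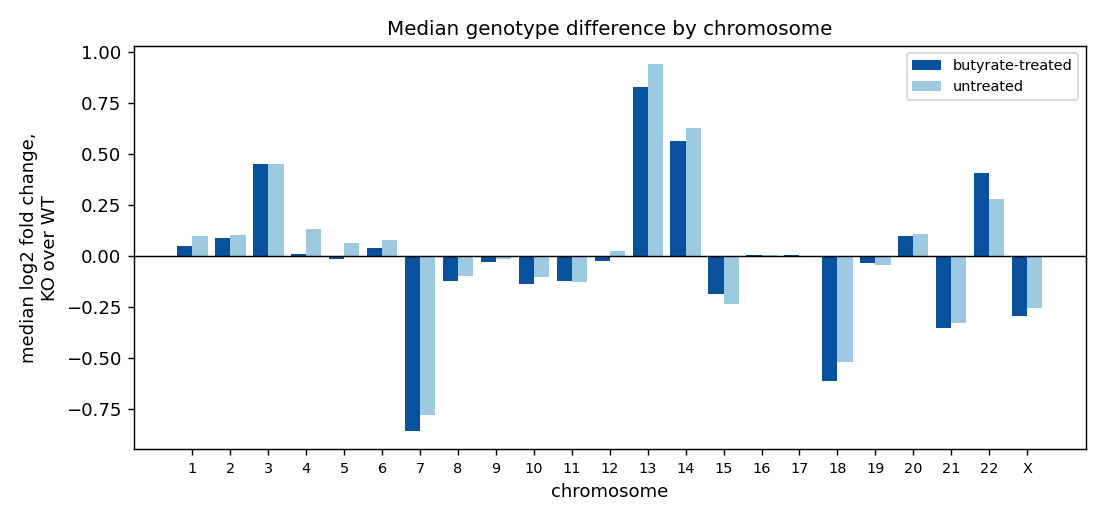
Median log2 fold change of KO over WT for the tested genes of each chromosome, with butyrate (dark bars) and without (light bars). Chromosome 7 is lowest at -0.86 with butyrate and chromosome 13 highest at 0.83, and the untreated bars stand at similar heights.

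Globin transcripts were the most affected part of the erythroid program. Of 9 tested globin genes, 5 were called lower in treated KO cells (55.6%, against 8.89% of all genes) and none higher. The list median was -2.85 (-1.92 untreated). The same 5 were called lower without butyrate. HBE1, the embryonic beta-type globin, stood at 23164, 13909 and 10304 CPM in treated WT cells and at 419, 222 and 92.0 CPM in treated KO cells. Its log2 difference was -6.02 ± 0.70 (SE; adjusted p = 9.88e-05), and -7.99 without butyrate. The fetal pair HBG1 and HBG2 are near-identical copies, so their counts were summed: 30527, 19390 and 14967 CPM in treated WT libraries against 3335, 2135 and 2909 CPM in treated KO libraries. No KO library came near a WT one, and the KO mean was 12.9% of the WT mean with butyrate and 24.5% without it.

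The alpha globins HBA1 and HBA2, also near-identical and summed, were at 14894, 5732 and 2592 CPM in treated WT cells and at 661, 651 and 624 CPM in treated KO cells. The treated KO libraries lay close together, whereas the WT libraries spread widely. The WT mean was 12 times the KO mean, and 6.45 times without treated WT replicate 1. HBA1 was called with a log2 difference of -3.48 (adjusted p = 0.00123) and HBA2 with -3.71 (adjusted p = 0.00104), and leaving out any 1 library kept both calls. HBZ, the embryonic alpha-type globin, was not called (-2.06, adjusted p = 0.113). It read 7553, 1256 and 342 CPM in treated WT and 1108, 582 and 499 CPM in treated KO cells, and these ranges overlap. Without treated WT replicate 1 its log2 difference was -0.14 (adjusted p = 0.889). Without treated WT replicate 3 the adjusted p was 0.0240. HBD, the minor adult beta-type globin, fell short of the threshold at 20.4, 17.2 and 14.6 CPM against 6.15, 7.37 and 7.93 CPM (adjusted p = 0.0601). Its adjusted p was 0.0256 with the replicate block and 0.104 without treated WT replicate 1. In bulk RNA, fewer hemoglobin-making cells and less globin RNA per cell cannot be told apart.

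**Figure D3:**
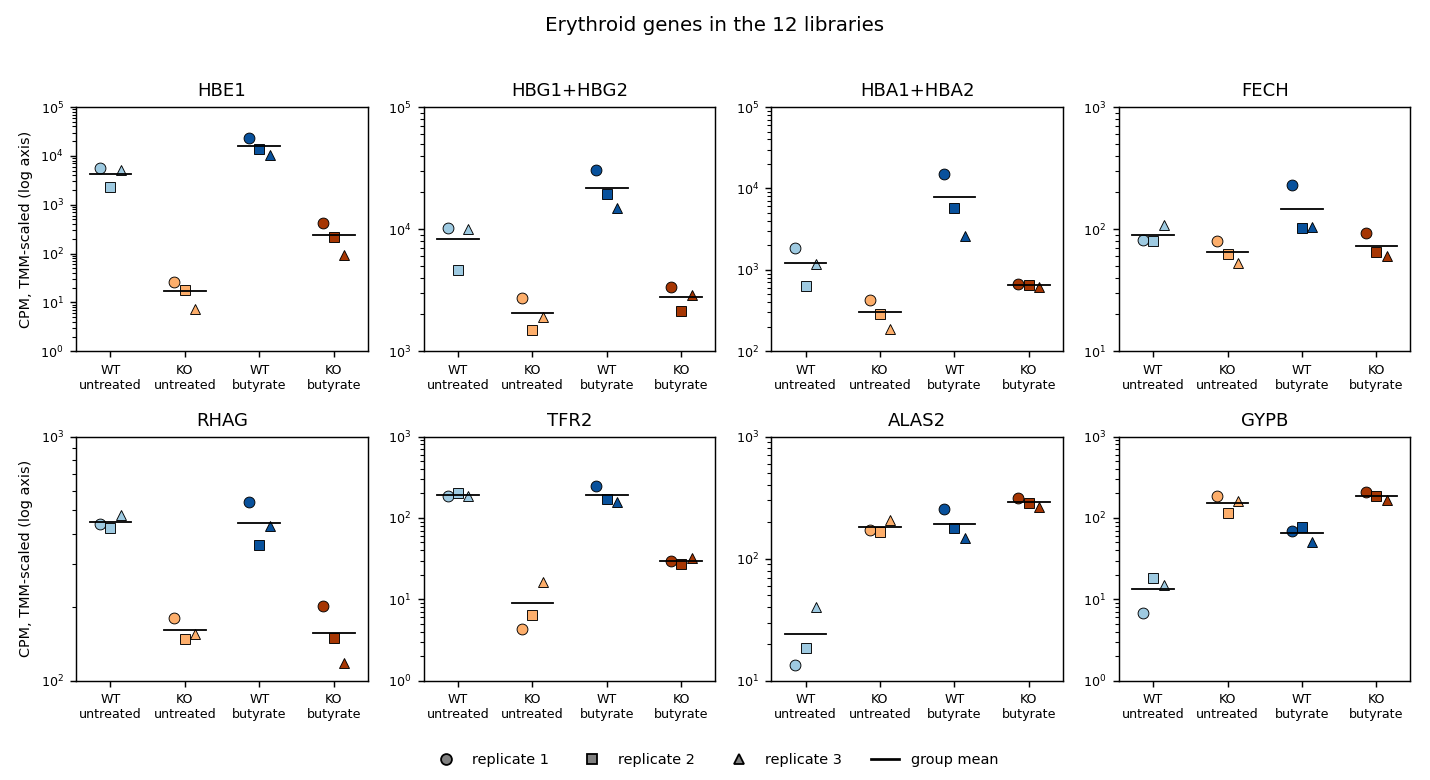
CPM on a log axis for 8 erythroid genes or summed gene pairs in all 12 libraries; marker shape gives the replicate and the line the group mean. Globins, FECH, RHAG and TFR2 are lower in treated KO than in treated WT cells, while ALAS2 and GYPB are far apart between genotypes without butyrate and closer with it.

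Of the heme synthesis genes, 3 were lower in treated KO cells and were not called in untreated cells. FECH, which inserts iron into protoporphyrin and lies on chromosome 18, was at 231, 103 and 105 CPM in treated WT and 93.8, 64.9 and 60.2 CPM in treated KO cells, with no overlap. Its difference was -1.002 (adjusted p = 0.0422), and -0.46 untreated. SLC25A39, the mitochondrial glutathione importer, was at 493, 416 and 384 CPM against 218, 298 and 322 CPM, a difference of -0.63 (adjusted p = 0.0395).

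These 3 were the list's calls among 15 tested genes (20% lower, against 8.89% of all genes). None was higher, and the list median was -0.30 (0.01 untreated). Without treated WT replicate 1 none of the 3 passed, with FECH at -0.52 (adjusted p = 0.1403) and SLC25A39 at an adjusted p of 0.0853, and 1 other gene, PPOX, the oxidase before FECH, was called higher (0.90). With the replicate block 5 genes were lower and PPOX higher (adjusted p = 0.0245), and with all libraries numbered 1 left out 3 were lower and 1 higher. The list had 1 lower call without treated KO replicate 2 or KO replicate 3. FECH and SLC25A39 each lost the call in 6 of the 12 fits that lacked 1 library. For FECH the adjusted p was 0.125 without treated KO replicate 2 and 0.122 without KO replicate 3. For SLC25A39 it was 0.142 without treated KO replicate 1, 0.0586 without KO replicate 2 and 0.0842 without WT replicate 2. ALAD, which makes porphobilinogen, read 54.3, 50.4 and 71.7 CPM in treated WT and 53.4, 36.5 and 52.9 CPM in treated KO cells and was not called.

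ALAS2, the first and rate-limiting enzyme of erythroid heme synthesis, followed another pattern. In untreated cells it was higher in KO, at 171, 164 and 207 CPM against 13.4, 18.5 and 40.2 CPM in WT (log2 difference 2.91, adjusted p = 0.00012). With butyrate WT cells reached 254, 179 and 147 CPM and KO cells 316, 288 and 266 CPM. Every treated KO library still exceeded every treated WT library, but the difference was 0.59 (adjusted p = 0.264). The interaction, the treated difference minus the untreated one, was -2.32 (unadjusted p = 0.00037), and it did not pass over all genes. With the replicate block its adjusted p was 0.0948, and DESeq2 called it (adjusted p = 0.0041).

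Of 25 tested genes that take up and store iron 4 were lower in treated KO cells (16%, against 8.89% of all genes) and 1 higher (4%, against 10.1%). TFR2, the iron-sensing second transferrin receptor, was at 248.6, 173 and 159 CPM in treated WT cells and at 29.4, 27.1 and 32.6 CPM in treated KO cells, with no overlap (-2.70, adjusted p = 0.00048; -4.39 untreated). It lies on chromosome 7. FTL, the ferritin light chain, read 3216, 2825 and 3005 CPM against 1197, 1137 and 1328 CPM (-1.30 in both conditions). FTH1, the heavy chain, read 729, 350 and 364 CPM against 229, 223 and 235 CPM with a treated difference of -1.07 (adjusted p = 0.0130) and an untreated one of -0.64 that was not called. Without treated WT replicate 1 the FTH1 difference was -0.65 (adjusted p = 0.0237), close to the untreated value. SLC25A37, mitoferrin, which carries iron into mitochondria, was called lower in treated cells (-0.85) and not in untreated cells, and SLC39A14, a zinc and iron importer, was the only member called higher (0.96). The list median was -0.11, and it was 0.02 without treated WT replicate 1, when 2 were higher, and 0.03 with scaling by library size alone. The SLC25A37 call was lost without treated WT replicate 2 (adjusted p = 0.0862), KO replicate 2 (0.0612) or KO replicate 3 (0.0614), and that of SLC39A14 without treated WT replicate 2 (0.0708), WT replicate 3 (0.0504) or KO replicate 2 (0.0618).

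Heme breakdown and export genes gave 3 lower calls and 1 higher among 14 tested (median -0.12), SLC48A1 included. The shares were 21.4% lower, against 8.89% of all genes, and 7.14% higher, against 10.1%. BLVRB, a biliverdin reductase, was at 564, 392 and 430 CPM in treated WT and 141, 138 and 225 CPM in treated KO cells (-1.46, adjusted p = 0.00191; -1.83 untreated), with no overlap. BLVRA, the other biliverdin reductase, lies on chromosome 7 and was also lower (-0.999, adjusted p = 0.0423), a call that was lost in 9 of the 12 fits that each lacked a library, the highest being 0.151 without treated WT replicate 2. FLVCR2, a heme and choline transporter, was under 0.25 CPM in every treated WT library and at 1.24, 4.29 and 4.61 CPM in treated KO cells (4.52, adjusted p = 0.00412). The replicate block raised the list's calls to 4 lower and 3 higher.

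Red cell membrane and blood group genes went both ways: 7 of 32 tested were lower in treated KO cells and 5 higher. The shares were 21.9% lower, against 8.89% of all genes, and 15.6% higher, against 10.1%. The list median was -0.16, and 0.10 without treated WT replicate 1, against 0.26 untreated. RHAG, the Rh-associated glycoprotein, was at 540, 361 and 432 CPM in treated WT and 203, 150 and 118 CPM in treated KO cells (-1.50, adjusted p = 0.000623), much as without butyrate (-1.46). AQP1, the water channel, which lies on chromosome 7, was at 98.0, 31.6 and 49.4 CPM against 8.68, 3.01 and 3.45 CPM (-3.57, adjusted p = 0.0013). EPB42, protein 4.2 of the membrane skeleton, was at 6.74, 1.58 and 2.19 CPM against 0.322, 0.0661 and 0.193 CPM (-4.17, adjusted p = 0.00955). In all 3 genes the groups stood apart.

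GYPB, glycophorin B, was higher in treated KO cells, at 210, 185 and 168 CPM against 68.5, 76.5 and 50.1 CPM (1.53, adjusted p = 0.00518), with no overlap. Without butyrate the gap was wider, 185, 114 and 163 CPM against 6.72, 18.4 and 14.9 CPM (3.53). XK, the Kell-linked membrane protein, narrowed from 3.07 to 1.51, and RHCE, which carries the Rh C and E antigens, from 2.44 to 1.31. Without treated WT replicate 2 the list had 3 higher and 8 lower calls. Over the 32 genes the interaction was negative in 23 and positive in 9. The XK call was lost without treated WT replicate 2 (adjusted p = 0.0504), and the RHCE call without treated WT replicate 3 (0.0551) or KO replicate 2 (0.0520).

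The promoters of ALAS2 and EPB42 are shown because one gene became more alike between the genotypes with butyrate and the other stayed lower in KO, and both hold the GATA motif AGATAA, the letters bound by GATA1. Each run is the 250 bases before the RefSeq start site in GRCh38.p14, 5′ to 3′ on the gene's own strand, with AGATAA on either strand in capitals. ALAS2 is taken from chrX:55030978-55031227, minus strand, and EPB42 from chr15:43221019-43221268, minus strand.
ALAS2: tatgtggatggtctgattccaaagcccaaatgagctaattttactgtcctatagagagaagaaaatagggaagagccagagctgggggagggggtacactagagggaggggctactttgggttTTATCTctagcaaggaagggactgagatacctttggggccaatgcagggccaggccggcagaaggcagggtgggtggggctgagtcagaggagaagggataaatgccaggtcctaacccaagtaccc
EPB42: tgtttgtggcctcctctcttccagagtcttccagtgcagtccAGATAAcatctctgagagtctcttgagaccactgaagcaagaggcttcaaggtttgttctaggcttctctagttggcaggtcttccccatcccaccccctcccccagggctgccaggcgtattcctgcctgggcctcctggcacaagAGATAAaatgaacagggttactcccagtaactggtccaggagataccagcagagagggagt
The ALAS2 window has 1 match, 127 bases before the start, and the EPB42 window has 2, at 208 and 61 bases. AGATAA was found in 5 of 25 matched membrane and blood group promoters (20.0%), in 3 of 13 heme synthesis promoters (23.1%) and in 5.04% of the 11688 matched promoters of all genes tested. It was in 5.71% of the promoters of genes called lower in treated KO cells and in 7% of those called higher. The motifs here were chosen after the values were seen, and a match is not a measured binding site.

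Among 31 erythroid regulators 4 were lower (12.9%, against 8.89% of all genes) and 1 higher (3.23%, against 10.1%) in treated KO cells (median -0.31, and 0.19 without treated WT replicate 1; -0.43 untreated). SOX6, a repressor of embryonic globin, was at 6.12, 4.14 and 5.08 CPM in treated WT cells and under 0.3 CPM in every treated KO library (-4.92, adjusted p = 0.00215). KIT, the stem cell factor receptor of early erythroid cells, was at 11.98, 21.3 and 19.7 CPM against 95.4, 86.8 and 60.6 CPM, a clear separation (2.20, adjusted p = 0.00304). GATA1, the master erythroid factor, was not called: 598, 354 and 221 CPM against 285, 228 and 177 CPM, which overlap (-0.77, adjusted p = 0.1005). Its adjusted p was 0.0274 with the replicate block and 0.0190 without treated WT replicate 3. Without treated WT replicate 1 the GATA1 difference was -0.33 (adjusted p = 0.367). JAK2, the kinase of the erythropoietin receptor, was lower with butyrate (-1.13, adjusted p = 0.0391) and at -0.43 without it, a call lost in 8 of the 12 leave-one-out fits (-0.64 and 0.136 without treated WT replicate 1). ZBTB7A and LDB1, both globin locus regulators, had log2 differences of -0.89 and -0.69. ZBTB7A was lost without treated KO replicate 3 (0.0983), KO replicate 1 (0.0570) or WT replicate 2 (0.0621), and LDB1 without KO replicate 2 (0.0513) or KO replicate 3 (0.0535). Without treated WT replicate 1 their adjusted p-values were 0.0796 and 0.0543, and the list had 1 lower and 2 higher calls, the second higher one being LMO2 (2.27). With the replicate block 8 were lower and 3 higher, LMO2 among them (adjusted p = 0.0491). The lower calls numbered 1 without treated KO replicate 3, 2 without KO replicate 2 and 8 without WT replicate 3.

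Of 27 tested red cell enzymes 8 were lower in treated KO cells (29.6%, against 8.89% of all genes), 1 was higher and 18 were not called (median -0.51; -0.58 untreated). The median was -0.28 without treated WT replicate 1, with 6 lower, and -0.27 without all libraries numbered 1, with 8 lower. The lower calls numbered 5 without treated KO replicate 3 or WT replicate 2, and 11 with the replicate block. CA1, carbonic anhydrase 1, a late erythroid enzyme, was at 20.2, 7.21 and 3.62 CPM in treated WT cells and at 0 in all 3 treated KO libraries, at least 92.9-fold lower against a floor of 3 counts per library averaged over the group, and at least 48.7-fold without treated WT replicate 1. CAT, catalase, was at 128, 107 and 98.0 CPM against 42.5, 51.6 and 49.3 CPM (-1.22, adjusted p = 0.000412). SELENBP1, a methanethiol oxidase of red cells, was at 199, 95.7 and 98.0 CPM against 39.7, 35.1 and 35.9 CPM (-1.83, adjusted p = 0.00187). None of these groups overlapped. CA8, a carbonic anhydrase-related protein, was the 1 higher gene (1.64; 2.99 untreated).

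The antioxidant genes governed by NRF2 and BACH1 leaned low in both conditions (median -0.37 treated and -0.51 untreated). Of 31 tested, 10 were lower in treated KO cells (32.3%, against 8.89% of all genes) and 3 higher (9.68%, against 10.1%). Without treated KO replicate 2 there were 7 lower and 1 higher, and without WT replicate 2 there were 9 lower and 1 higher. TALDO1, transaldolase of the pentose phosphate pathway, was at 565, 440 and 426 CPM in treated WT and 186, 206 and 219 CPM in treated KO cells (-1.23, adjusted p = 0.000586; -1.78 untreated), with the groups fully separated. ABCC3, an efflux pump, went the other way and only with butyrate; it is described with the genes below. SQSTM1, the autophagy receptor p62, was called lower in treated cells and not in untreated cells (-1.33, adjusted p = 0.0191), although its groups overlapped, and its call was lost without treated WT replicate 1 (-0.84; adjusted p = 0.0559), KO replicate 2 (0.0766) or KO replicate 3 (0.0631).

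The list of ATF4 targets and other stress response genes gave 1 lower call among 39 tested (2.56%, against 8.89% of all genes). The gene was EIF2AK1, the heme-regulated kinase HRI itself, and the other 38 members were not called. It was at 328, 389 and 380 CPM in treated WT and at 184, 173 and 191 CPM in treated KO cells, with no overlap (-1.001, adjusted p = 0.00103; -0.72 untreated). It lies on chromosome 7, whose median was -0.86. The list median was -0.40 in treated cells and 0.01 in untreated cells, and the interaction was negative in 34 of the 39 genes, but no member's interaction passed over all genes. SLC7A11, the cystine importer, shows the spread: 43.0, 50.7 and 45.6 CPM in treated WT cells and 12.7, 7.86 and 45.1 CPM in treated KO cells, so KO replicate 3 lay within the WT range. Without that library SLC7A11 was called lower (-2.19, adjusted p = 0.00445), and the list had 8 lower calls and a median of -0.61. With the replicate block 3 genes of the list were called lower, and without all libraries numbered 1 the median was near 0 (0.00031), with 3 higher and 1 lower.

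A smaller set of differences appeared mainly with butyrate. Of the 635 genes called only in treated cells, 229 had an untreated difference of opposite sign or smaller than 0.5 times the treated one on the log2 scale: 129 were higher in treated KO cells and 100 lower. The set is defined by thresholds and is not itself a test of the change in difference. The interaction was called for none of the 15805 genes by edgeR (0%; smallest adjusted p 0.0566), while 658 genes (4.16%) had an unadjusted interaction p below 0.05, as did 78 of the 229. These 78 used the same treated libraries that chose the set. DESeq2 called 86 genes for the interaction, 9 of them in its own version of the set. The 10 rises and 10 falls of the 229 named below were picked by interaction p. Of these, DESeq2 called TRPV6, PDE4DIP, FEV, TSPAN13, LOC100996724, ABCC3, SCRT2, DOCK2, TEAD1, GNA15 and SCRN1 (adjusted p from 0.00034 to 0.0449). It did not call TNFRSF1A, HLA-DMA, KLF6, CDHR5, HMMR, ZNF611, TRPS1, PHF20L1 or CDK1.

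The size of this set moved with the libraries. It held 463 genes without treated WT replicate 1, of which 156 were among the 229. It held 143 without treated KO replicate 2 and 138 without treated WT replicate 2. With the replicate block it held 476, of which 210 were shared, and with only the 6 libraries of each contrast 86, of which 75 were shared. By group means, the larger butyrate shift was in WT for 62 of the 129 higher genes and in KO for 67, and in WT for 49 of the 100 lower genes and in KO for 51.

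Among the genes higher in treated KO cells, PDE4DIP, myomegalin, an anchor protein of the Golgi and centrosome, was one of the 10 rises picked for the smallest interaction p. It was at 42.5, 38.8 and 49.5 CPM in treated WT and at 143, 189 and 166 CPM in treated KO cells (1.93 ± 0.25 SE, adjusted p = 0.00023). In untreated cells the levels were 155, 247 and 123 CPM in WT and 158, 209 and 172 CPM in KO (0.04). WT cells with butyrate were thus the group that stood low, and the other 3 groups overlapped. The interaction was 1.89 (unadjusted p = 0.00013) and was not called by edgeR (adjusted p = 0.182). Its adjusted p was 0.0814 with the replicate block and 0.000567 by DESeq2. TNFRSF1A, the main TNF receptor, had the same layout: 17.1, 18.3 and 16.7 CPM in treated WT against 45.5, 44.9 and 32.6 CPM in treated KO cells (1.24, adjusted p = 0.00386), with untreated values of 49.7, 39.0 and 30.1 CPM and 35.2, 49.8 and 31.1 CPM.

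FEV, an ETS-family factor known from serotonin neurons, stood highest in treated KO cells. It was at 7.26, 13.3 and 6.61 CPM in treated WT and at 39.0, 58.9 and 28.5 CPM in treated KO cells (2.22 ± 0.44 SE, adjusted p = 0.00361), against 28.5, 17.8 and 11.7 CPM and 5.73, 11.8 and 12.6 CPM without butyrate (-0.94, not called). ABCC3, the multidrug resistance-associated pump for organic anions, was at 3.42, 4.18 and 4.45 CPM in treated WT and 11.5, 33.6 and 17.05 CPM in treated KO cells (2.36, adjusted p = 0.0130), and under 3 CPM in every untreated library (-1.19). Its call was lost without treated KO replicate 2 (0.0789). GNA15, a G protein alpha subunit of blood cells, was at or under 0.604 CPM in treated WT libraries and at 4.13, 4.16 and 2.90 CPM in treated KO libraries (3.31, adjusted p = 0.00368; -0.05 untreated).

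SCRN1, secernin 1, on chromosome 7, was at 0.0518, 0.555 and 1.43 CPM in treated WT and 7.17, 17.7 and 11.6 CPM in treated KO cells (4.11, adjusted p = 0.00438; 0.33 untreated). HLA-DMA, a chain of the HLA class II peptide loader, was at 1.81, 0.299 and 2.03 CPM against 8.45, 8.23 and 5.74 CPM (2.43, adjusted p = 0.0139; -0.39 untreated). Both pairs of treated groups were apart, while the untreated ranges overlapped. The uncharacterized LOC100996724 (1.58), DOCK2 (1.11), a Rac activator of blood cells, and SCRT2 (1.48), a zinc finger repressor, complete the 10 rises picked by interaction p. Their untreated differences had the opposite sign, at -0.46, -1.01 and -1.17, and none was called. DOCK2 was at 26.2, 36.6 and 35.4 CPM in untreated WT and 8.46, 19.9 and 20.3 CPM in untreated KO cells, with no overlap. The calls of DOCK2 and SCRT2 were lost in 10 of the 12 leave-one-out fits, with the highest adjusted p, 0.287 and 0.1996, without treated KO replicate 2, where DOCK2 was at 0.62.

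Among the genes lower in treated KO cells, TSPAN13, a tetraspanin of the cell surface, was at 219, 190 and 154 CPM in treated WT and at 56.5, 82.1 and 79.9 CPM in treated KO cells (-1.36 ± 0.21 SE, adjusted p = 0.000745). Untreated cells of both genotypes lay between 49.99 and 70.3 CPM (0.13), so the treated WT libraries were the ones that stood high. The gene lies on chromosome 7, where its untreated difference was not low. TRPV6, a calcium channel also on chromosome 7, was at 7.21, 6.19 and 1.62 CPM in treated WT cells and at 0 in all 3 treated KO libraries, at least 45.0-fold lower against the 3-count floor. Without butyrate it was at 1.08, 1.02 and 1.01 CPM in WT and 0.749, 0.238 and 0.268 CPM in KO cells, which did not overlap (-1.32, not called). TEAD1, the DNA-binding partner of YAP, was at 44.4, 49.5 and 55.7 CPM in treated WT and 28.6, 26.0 and 24.5 CPM in treated KO cells (-0.92, adjusted p = 0.00371). It overlapped between genotypes without butyrate (0.08).

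KLF6, a zinc finger factor of the KLF family, was at 67.9, 50.2 and 54.0 CPM in treated WT and 42.2, 28.9 and 34.4 CPM in treated KO cells (-0.71, adjusted p = 0.0331), and leaned the other way untreated (0.36). Its call was lost without treated WT replicate 1 (0.0747), WT replicate 3 (0.0515), KO replicate 2 (0.111) or KO replicate 3 (0.0774). CDHR5, a brush-border cadherin (-1.13), was likewise lost without treated WT replicate 1 (0.0844), WT replicate 2 (0.0610), KO replicate 2 (0.108) or KO replicate 3 (0.0818). ZNF611, a KRAB zinc finger gene (-1.04), TRPS1, a GATA-type repressor (-1.38), and PHF20L1, a reader of methylated lysine (-0.76), kept their calls in all 12 fits. HMMR and CDK1 complete the 10 falls.

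**Figure D4:**
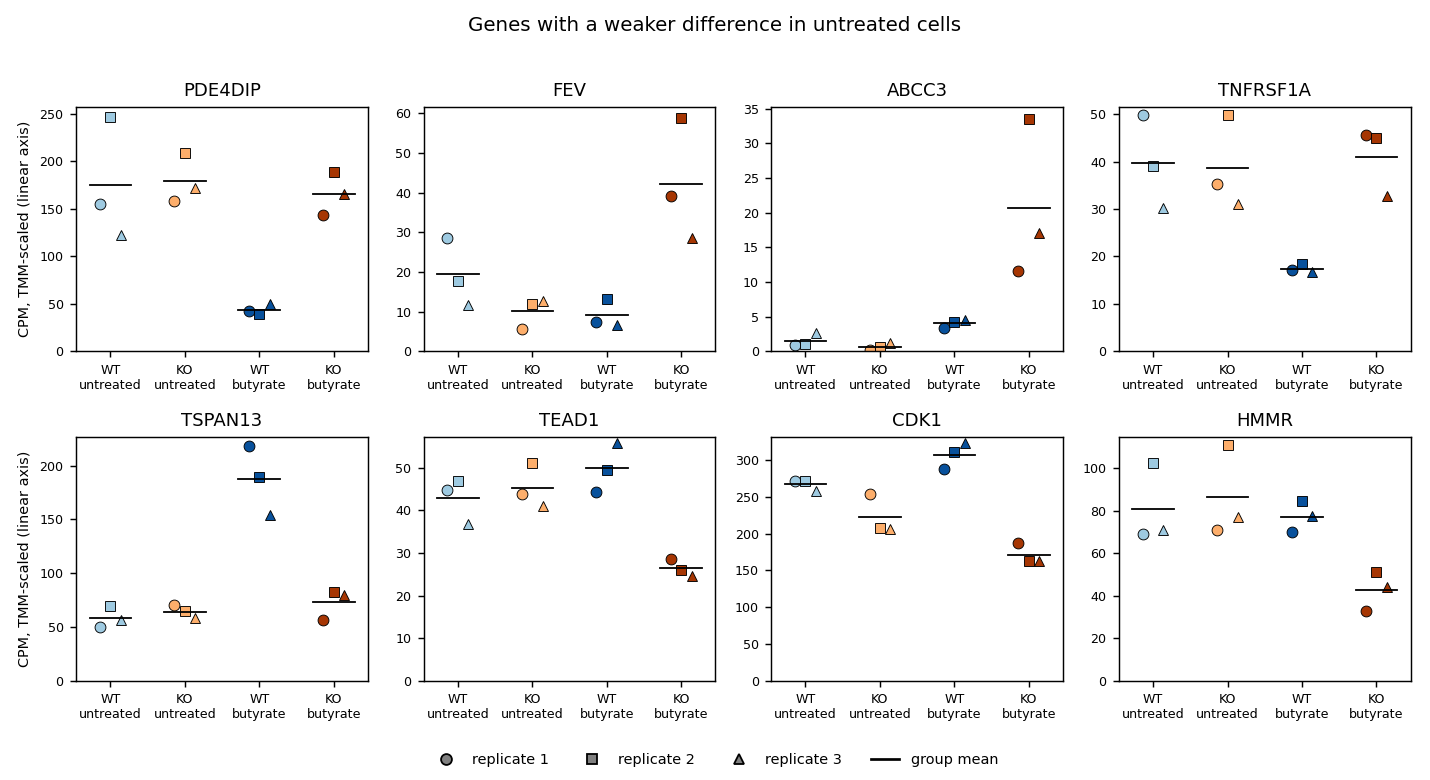
CPM on a linear axis for 8 genes called in treated cells with a weaker untreated difference, in all 12 libraries; marker shape gives the replicate and the line the group mean. In PDE4DIP, TNFRSF1A and TSPAN13 the treated WT libraries stand apart from the other groups, and in ABCC3, HMMR and CDK1 the treated KO libraries do.

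Of 35 tested mitotic genes, 4 were lower and none higher in treated KO cells. The lower share was 11.4%, close to the 8.89% of all genes. Untreated, 1 was higher and none lower. CDK1, the kinase that starts mitosis, was at 288, 311 and 324 CPM in treated WT and at 187, 163 and 163 CPM in treated KO cells (-0.85 ± 0.16 SE, adjusted p = 0.00281; -0.26 untreated). HMMR, a spindle-associated protein, was at 69.7, 84.3 and 77.4 CPM against 32.6, 51.0 and 44.3 CPM (-0.85, adjusted p = 0.0245; 0.10 untreated). ASPM, a spindle pole protein, was at 113, 156 and 175 CPM against 65.5, 108 and 79.2 CPM (-0.81, adjusted p = 0.0438). ANLN, the cleavage furrow protein anillin, on chromosome 7, was at 85.7, 85.4 and 92.3 CPM against 37.4, 56.2 and 57.0 CPM (-0.81, adjusted p = 0.00881; -0.41 untreated). In each of the 4 genes every treated KO library lay below every treated WT library.

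The list median was -0.12 in treated and 0.11 in untreated cells, and the interaction was negative in 31 of the 35 genes. Without treated WT replicate 1 the median was -0.05, with 5 genes lower and none higher, and without all libraries numbered 1 it was -0.15, with the same counts. Scaling by library size alone gave a median of -0.03 and 2 lower calls, CDK1 and ANLN. The replicate block gave 5 lower and 1 higher. There were 2 lower calls without treated KO replicate 1, KO replicate 3, WT replicate 2 or WT replicate 3, and in the last of these 1 higher. These 2 genes also kept their calls in all 12 leave-one-out fits. HMMR lost its call without treated WT replicate 2 (0.0845), WT replicate 3 (0.0547), KO replicate 1 (0.0871) or KO replicate 3 (0.0566), and ASPM in 7 of the 12 (0.143 without KO replicate 1). Genes of DNA replication gave 2 lower calls of 36 (5.56%, against 8.89% of all genes) and no higher ones (against 10.1%), with a median of -0.02. With the replicate block 6 were higher and 2 lower, in a fit that called 2462 of all 15805 genes higher and 2150 lower. Without treated WT replicate 1 there were 2 higher and 1 lower, 1 was lower without KO replicate 2 or WT replicate 2, and none was called without KO replicate 3.

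The promoters of these 4 genes are shown because these are the mitosis members called lower with butyrate and each window holds TTTGAA, the cell cycle homology region (CHR) motif known from genes expressed late in the cell cycle. Each run is the 250 bases before the RefSeq start site in GRCh38.p14, 5′ to 3′ on the gene's own strand, with TTTGAA on either strand in capitals. The windows are chr10:60778081-60778330, plus strand (CDK1), chr1:197146670-197146919, minus strand (ASPM), chr5:163460382-163460631, plus strand (HMMR), and chr7:36389612-36389861, plus strand (ANLN).
CDK1: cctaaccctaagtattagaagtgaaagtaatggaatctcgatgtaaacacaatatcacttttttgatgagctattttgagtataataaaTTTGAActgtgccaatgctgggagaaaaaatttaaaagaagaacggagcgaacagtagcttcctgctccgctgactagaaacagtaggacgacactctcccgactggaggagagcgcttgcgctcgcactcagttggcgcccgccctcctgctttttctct
ASPM: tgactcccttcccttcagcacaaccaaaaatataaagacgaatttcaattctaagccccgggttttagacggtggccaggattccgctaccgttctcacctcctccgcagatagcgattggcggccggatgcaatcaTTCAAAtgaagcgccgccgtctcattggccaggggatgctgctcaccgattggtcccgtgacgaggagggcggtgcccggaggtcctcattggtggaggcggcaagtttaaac
HMMR: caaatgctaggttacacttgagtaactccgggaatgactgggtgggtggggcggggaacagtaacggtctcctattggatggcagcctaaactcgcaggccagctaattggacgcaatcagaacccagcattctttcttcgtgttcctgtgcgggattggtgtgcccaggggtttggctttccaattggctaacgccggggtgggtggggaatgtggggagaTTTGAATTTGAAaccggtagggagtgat
ANLN: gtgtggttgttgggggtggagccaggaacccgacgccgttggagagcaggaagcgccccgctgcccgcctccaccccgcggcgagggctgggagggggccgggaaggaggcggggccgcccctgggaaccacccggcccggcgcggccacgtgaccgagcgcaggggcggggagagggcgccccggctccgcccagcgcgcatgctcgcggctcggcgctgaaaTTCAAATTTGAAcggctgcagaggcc
The match lies 161 bases before the start in CDK1 and 113 in ASPM, while HMMR has 2 adjoining matches at 28 and 22 bases and ANLN 2 at 26 and 20. TTTGAA was in 16 of 30 matched mitosis promoters (53.3%), 12 of them in genes that were not called, in 1 of 31 DNA replication promoters (3.23%) and in 8.79% of the promoters of all genes tested. It was in 11 of the 71 matched promoters (15.5%) of genes lower in treated cells with a weaker untreated difference, and in 11 of 97 (11.3%) of those higher. These genes and this motif were also chosen after the values were seen, and a match is not a measured binding site.

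Members of the matrix, BCL2 family, cell cycle inhibitor and lysosome lists also appear in the set that was weaker without butyrate. LOXL2, a collagen cross-linking oxidase, was at 0.985, 2.30 and 3.27 CPM in treated WT and 11.2, 32.6 and 28.0 CPM in treated KO cells (3.44, adjusted p = 0.00136; 1.37 untreated, not called). BAK1, a pore-forming member of the BCL2 family, was at 36.6, 22.6 and 23.9 CPM against 64.3, 79.6 and 66.5 CPM (1.34, adjusted p = 0.00154; 0.60 untreated). MXD1, a MYC antagonist linked to leaving the cell cycle, was at 149, 39.2 and 49.4 CPM against 30.9, 11.8 and 18.9 CPM (-1.95, adjusted p = 0.0102; -0.90 untreated). Without treated WT replicate 1 the MXD1 difference was -1.12 (adjusted p = 0.0226). Against the untreated -0.90, that value would not meet the rule that defined the set, so the place of MXD1 in it rested on that library. NEU1, the lysosomal sialidase, was at 1172, 875 and 1339 CPM against 609, 599 and 612 CPM (-0.90, adjusted p = 0.0153; -0.27 untreated), and its call was lost without treated WT replicate 3 (0.0540). None of these 4 had overlapping treated groups.

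Class I HLA genes, which K562 cells are known to express at very low levels, were higher in KO cells in both conditions. Of 21 tested genes of antigen presentation 6 were higher in treated KO cells (28.6%, against 10.1% of all genes) and none lower. The list median was 0.29, and 0.01 untreated. HLA-C was at 0.363, 0.939 and 1.46 CPM in treated WT and at 197, 213 and 333 CPM in treated KO cells (8.01, adjusted p = 1.75e-05). NLRC5, the transactivator of class I genes, was at 0.259, 0.256 and 0.604 CPM against 44.3, 44.7 and 28.2 CPM (6.64, adjusted p = 2.03e-05). Both genes were close to absent in WT cells and clearly present in KO cells. HLA-B (3.94) and the stress ligands MICA (1.06) and MICB (1.20) were also higher; these are related copies whose reads may be shared, and MICB was lost without treated KO replicate 2 (0.0819). The replicate block raised the list to 8 higher and 2 lower, and without treated KO replicate 3 there were 6 higher and 1 lower.

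Of 23 interferon-stimulated genes 6 were higher in treated KO cells (26.1%, against 10.1% of all genes) and none lower. The list median was 0.85, and 0.29 untreated. IFITM3, an antiviral membrane protein, was at 6.01, 5.25 and 6.07 CPM against 64.0, 47.5 and 71.1 CPM (3.40, adjusted p = 8.12e-06), and IFIH1, the RNA sensor MDA5, at 0.155, 0.256 and 0.191 CPM against 4.32, 8.95 and 10.1 CPM (5.24, adjusted p = 0.000453). Their untreated differences were 3.10 and 5.68. With the replicate block 8 were higher and 2 lower. Without treated KO replicate 2 there were 4 higher and a median of 0.36, without KO replicate 3 there were 4 higher and 1 lower, and without WT replicate 1 there were 7 higher and 1 lower.

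**Figure D5:**
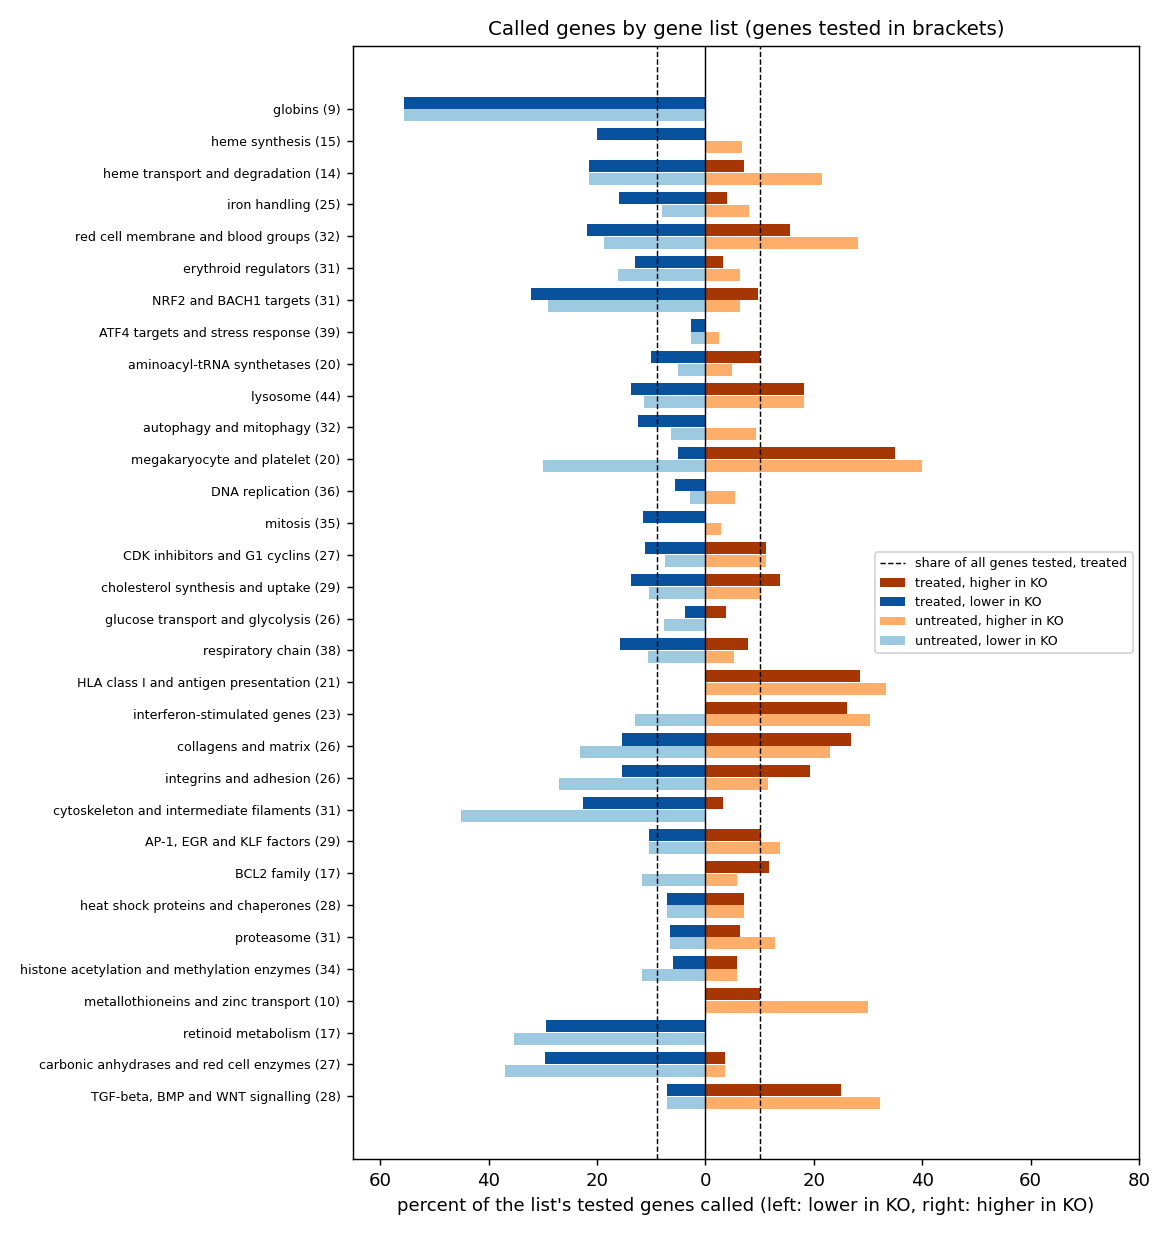
Share of each gene list called lower (left) or higher (right) in KO cells, with butyrate (dark) and without (light); the dashed lines mark the treated shares over all genes tested, 8.89% lower and 10.1% higher. The globin bar reaches farthest left, the treated HLA and interferon bars lie to the right only, and heme synthesis and mitosis have treated lower calls with no untreated ones.

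Adhesion, matrix and cytoskeletal genes differed in named members, most of them in both conditions. Of 26 collagen and matrix genes 7 were higher in treated KO cells (26.9%, against 10.1% of all genes) and 4 lower (15.4%, against 8.89%). The list median was 0.47, and -0.19 untreated. With the replicate block 10 were higher and 7 lower. The median was 0.21 without treated WT replicate 1, with 6 higher and 5 lower, and 0.17 without KO replicate 2, with 5 and 4. Without KO replicate 3 there were 4 higher and 3 lower. SPARC, a matrix glycoprotein also stored in platelets, was at 18.8, 19.9 and 25.0 CPM against 219, 255 and 316 CPM (3.63, adjusted p = 2.13e-06). Of 31 cytoskeletal genes 7 were lower (22.6%, against 8.89% of all genes) and 1 higher (3.23%, against 10.1%). The list median was -0.47, and -0.69 untreated. Without treated WT replicate 1 there were 9 lower and 2 higher, and none was higher without KO replicate 2, WT replicate 2 or WT replicate 3. KRT19, a keratin, was at 94.2, 163 and 130 CPM in treated WT cells and at 0.165 CPM or less in treated KO cells, and ANXA1, annexin A1, at 575, 537 and 269 CPM against 9.19, 5.62 and 3.35 CPM (-6.26, adjusted p = 3.61e-06). ANXA1 differed by -8.71 without butyrate. CD44, the hyaluronan receptor, was at 20.5, 99.0 and 78.7 CPM against 0.276, 1.68 and 0.548 CPM (-6.27, adjusted p = 0.000211). In these 4 genes the genotypes were far apart in every library.

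Of 20 megakaryocyte and platelet genes 7 were higher in treated KO cells (35%, against 10.1% of all genes) and 1 lower (5%, against 8.89%). The list median was nonetheless -0.34, and -0.05 without treated WT replicate 2. Without treated WT replicate 1 there were 8 higher and 2 lower, without KO replicate 1 there were 7 and 2, and with the replicate block 8 and 4. THBS1, thrombospondin 1, was at 3.42, 2.18 and 1.14 CPM against 48.5, 44.3 and 16.7 CPM (4.03, adjusted p = 0.000314). ESAM, an endothelial and platelet adhesion molecule, was at 3.06, 13.1 and 11.6 CPM against 58.0, 144 and 122 CPM (3.53, adjusted p = 0.00191) and differed by 7.80 without butyrate. Its narrowing was 1 of the 3 interactions called with the replicate block (-4.27, adjusted p = 0.00456). The others were CD24, a surface glycoprotein, at a log2 difference of -9.06 untreated and -3.59 with butyrate (adjusted p = 0.0236), and LINC01234, a noncoding RNA, at -4.08 untreated and -0.82 treated (adjusted p = 0.00456). The treated difference of LINC01234 was not called (adjusted p = 0.0618), but it was with the replicate block (0.00985) or without treated KO replicate 2 (0.00889). All 3 are differences that became smaller with butyrate.

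Some genes were read in 1 genotype alone. Among treated calls, 223 were at or under the 3-count floor in all treated WT libraries and 208 in all treated KO libraries. The 12 largest rises among well-counted genes were led by CHI3L2, a chitinase-like secreted protein, at 0 in the 3 treated WT libraries and at 426, 84.7 and 247 CPM in treated KO cells, at least 1999.6-fold higher against the floor and at least 1311-fold without KO replicate 1. COL2A1, the cartilage collagen, was at 0 against 243, 212 and 253 CPM, at least 1868-fold higher. CD209, the lectin DC-SIGN, was at 0 in treated WT cells and at 47.3, 54.6 and 11.4 CPM in treated KO cells. Treated KO cells were thus at least 299-fold above the floor of treated WT cells. In untreated KO cells CD209 was under 0.34 CPM. CTAG2, TSPYL5, SIX2, SOX1, HOOK1, ZNF711, PTPRG, LINC00674 and LOC100294145 were likewise at 0 in treated WT cells, and in treated KO cells their means were at least 164-fold to 649-fold above the floor.

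The 12 largest falls were led by ALDH1A2, which makes retinoic acid, at 259, 218 and 187 CPM in treated WT cells and at 0 in treated KO cells, at least 1993-fold lower. Of 17 retinoid genes 5 were lower in treated KO cells (29.4%, against 8.89% of all genes) and none higher. Untreated, 6 were lower and none higher, and the treated list median was 0.03. AK3, a mitochondrial adenylate kinase, was at 43.8, 49.8 and 59.8 CPM against 0, and SYK, a signalling kinase of blood cells, at 29.0, 16.99 and 14.8 CPM against 0. ENC1, TMOD2, FAT1, B3GALT1-AS1, SCG3, WSCD2, LOC105371703, TESPA1 and AKR1B1, the last on chromosome 7, were at 0.033 CPM or less in every treated KO library. ENC1 and TMOD2 were higher in the treated than in the untreated WT libraries on average, at 22.3, 106 and 69.3 CPM against 12.7, 27.8 and 18.8 CPM for ENC1 and at 12.3, 77.7 and 82.3 CPM against 8.61, 17.2 and 14.3 CPM for TMOD2. In untreated KO libraries all 12 were at 0.161 CPM or less.

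Markers of other blood and stromal cell types were low or mixed in the treated libraries. The 8 erythroid markers summed to between 7883 and 20869 CPM in treated WT libraries and between 2549 and 3686 CPM in treated KO libraries, with 2 called lower, both globins, and none higher. The 8 megakaryocyte markers summed to 124 to 281 CPM in WT and 87.5 to 119.9 CPM in KO cells, with PF4 at 0 throughout. Yet 2 of the 6 tested, GP9 (8.15) and GP1BA (2.64), were called higher in KO and none lower. ITGA2B, which was not called, held much of the sum, at 208, 94.9 and 106 CPM in WT and 48.2, 64.1 and 57.8 CPM in KO. Monocyte and macrophage markers summed to 55.1 to 74.4 CPM against 81.2 to 165 CPM, with MARCO at 0, and granulocyte and mast cell markers to 7.46 to 42.5 CPM against 12.5 to 64.9 CPM, with 3 of 8 at 0. Lymphocyte markers summed to 35.3 to 99.8 CPM against 11.8 to 14.2 CPM, with MS4A1 at 0, and stem and progenitor markers to 228 to 344 CPM against 216 to 281 CPM. Among the lymphocyte markers PTPRC (-7.28) and CD3D (-3.49) were called lower and CD3E (6.16) higher. Fibroblast and endothelial markers summed to 48.7 to 116.9 CPM against 72.3 to 160 CPM, with LUM and CDH5 at 0. Most of that sum was COL1A1, at 43.2, 108 and 91.3 CPM against 69.6, 154 and 67.3 CPM, which was not called. The part of any shift in cell state in the results above was not tested.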

How the data were processed

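Whole-number counts per gene symbol for 12 libraries were used as the authors deposited them, from total RNA extracted with TRIzol per the labels. FastQC 0.12.1, STAR 2.7.11b and build hg38 are named in the submitters' processing notes; the counting tool, annotation and strand setting are not given in the sources used here, so near-identical copies and overlapping genes are uncertain. No column was left unused. Genes with enough counts (filterByExpr, minimum count 10) were fitted with edgeR 4.0.16 (R 4.3.3, limma 3.58.1): TMM scaling, 1 quasi-likelihood fit over 12 libraries, contrasts for genotype with and without butyrate and their interaction, and Benjamini-Hochberg adjustment over 15805 genes with a threshold of 0.05. The code was tested on simulated data. Alternatives were DESeq2 1.42.0, other scalings and filters, a replicate block, the 6 libraries of a contrast alone, and fits without each library or without those numbered 1.

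Named genes were SLC48A1, the 12 largest rises and 12 largest falls among called genes whose treated groups did not overlap and whose higher group never fell below 50 counts, the 10 rises and 10 falls of the weaker-without-butyrate set with the smallest interaction p, and members of 32 gene lists and of the marker lists. CD24, ESAM and LINC01234 were named after their values were seen, as the interactions called with the block. The comparison, lists and rules were chosen with earlier results of these data known. Replicate numbers come from the sample titles: deviations of same-numbered WT and KO libraries from their group means correlated at 0.315 to 0.595 with butyrate and 0.210 to 0.361 without, against -0.512 to 0.343 and -0.288 to 0.0692 for different numbers. No 2 libraries of a group agreed within sampling noise. Chromosomes, coordinates and promoters come from RefSeq tables (GRCh38.p14), matched by symbol for 15172 of the tested genes, with promoters for 11688. Some list members are counted in their lists, and their single results are not reported here.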

Additional observations from a re-analysis of the deposited data

How the results depend on the processing

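Genes called in treated cells numbered 3009, against 1947 with at least 10 counts required in every library, 4612 with the replicate block, 1802 from the 6 treated libraries alone, and 2014 to 3477 with 1 library left out. Untreated calls numbered 3574, against 2334 with at least 10 counts in every library. Interaction calls numbered 0, against 86 by DESeq2, 2 with no filter, 1 with at least 10 counts in every library, 3 with the replicate block, 9 without the libraries numbered 1, and 0 to 2 with 1 library left out. The set weaker without butyrate numbered 229, against 386 by DESeq2, 476 with the block, 86 from the 6 libraries of each contrast, 481 without the libraries numbered 1, and 138 to 463 with 1 library left out. Fewer genes or fewer samples enter the stricter filter and the smaller fits; for the other settings the cause was not tested. The median log2 difference of the iron handling list, -0.11, became 0.0328 with library size alone and ranged from -0.17 to 0.0188 with 1 library left out, the highest without treated WT replicate 1. The median log2 difference of AP-1, EGR and KLF factors, treated KO against WT, was -0.11 and ranged from -0.15 to 0.00692 with 1 library left out, the highest without treated WT replicate 2. Scaling by library size alone moved the median of all genes to 0.09 and the share of calls that were higher from 53.3% to 62.0%. Of the 114 genes checked singly and called in treated cells, 83 kept the call in all 12 fits that left out 1 library. Beyond the changes given in the report, the replicate block changed no other call among the genes checked singly.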

Other observations

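Several other gene groups held calls in treated KO cells, and they are given beside the shares over all genes, 10.1% higher and 8.89% lower. Of 44 tested lysosomal genes 8 were higher, among them the acid hydrolases GAA and GLB1 and the acid lipase LIPA, and 6 lower, among them the cholesterol exporter NPC1 and LAMP2. The untreated counts for that list were 8 and 5, and the treated ones were 3 and 4 without treated WT replicate 2 and 12 and 10 with the replicate block. Of 32 autophagy genes 4 were lower (ATG2A, SQSTM1, WIPI2 and RB1CC1) and none higher, with 2 lower without treated KO replicate 1, KO replicate 2 or WT replicate 3 and 7 with the block. TGF-beta, BMP and WNT signalling had 7 higher, including the receptor BMPR2 and the WNT effector LEF1, and 2 lower of 28, against 9 and 2 untreated. Its higher calls numbered 1 without treated WT replicate 2, 3 without KO replicate 2, 4 without KO replicate 1 or KO replicate 3, and 8 without WT replicate 1. Integrin and adhesion genes had 5 higher, with the leukocyte integrin chains ITGAM and ITGB2 among them, and 4 lower of 26, against 3 and 7 untreated, and their treated counts were 2 and 4 without treated KO replicate 2 or WT replicate 3 and 5 and 8 with the block.

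Cell cycle inhibitors and G1 cyclins had 3 higher (RB1, BTG1 and GADD45A) and 3 lower (CCND1, RBL1 and MXD1) of 27. Cholesterol genes had 4 in each direction of 29, and glycolysis 1 in each direction of 26. Respiratory chain genes had 3 higher and 6 lower of 38. The BCL2 family had 2 higher, BAK1 and HRK, and none lower of 17. Each of the aminoacyl-tRNA synthetases (20 tested), heat shock proteins and chaperones (28), proteasome subunits (31) and histone acetylation and methylation enzymes (34) had 2 higher and 2 lower. The AP-1, EGR and KLF factors had 3 in each direction of 29, and metallothioneins and zinc transport 1 higher, SLC30A2, and none lower of 10. The small counts in these lists moved with single libraries. Proteasome subunits had 8 higher and none lower without treated WT replicate 1 (median 0.35, against 0.03), 8 higher and 2 lower with library size alone, and 7 higher and 4 lower with the block. Respiratory chain genes had 1 higher without treated KO replicate 3 or WT replicate 2 and 2 lower without KO replicate 2, and cholesterol genes 1 higher without WT replicate 2. Over the other lists of this paragraph, leaving out 1 treated library gave between 0 and 4 higher and between 0 and 3 lower calls.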
